A study of Mus musculus with 60 samples.

Results

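Epithelial cells with the highest GFP signal were compared between the distal and the proximal colon of the mouse. The comparison used 8 of the 60 libraries of the series, 4 titled as distal colon and 4 titled as proximal colon, and all genes of the deposited count table. Both groups came from mice that were 8 weeks old and carried Lgr5-2A-eGFP, an allele that links eGFP to the product of the endogenous Lgr5 locus. GFP therefore reports Lgr5 activity in every cell type that uses the locus, and the cells of both groups were sorted on it. The GFP-intermediate and GFP-negative cells of both colon parts, and GFP-high cells of the distal and the proximal small intestine, from mice of the same age and allele with 4 libraries per group, were used for contrast. Each colon was divided into 2 parts. Chelation and TrypLE freed the cells, each colon fraction was sorted to 30000 cells or more, and polyA RNA was sequenced. The labels used here give no sex, strain or pooling of mice, and nothing in them says that replicates are separate animals. The p-values therefore measure the spread between these libraries, which may be technical.

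The colon epithelium is renewed from Lgr5-positive stem cells at the base of the crypts, which depend on Wnt signals. The proximal colon of the mouse receives the contents of the cecum and handles fermentation products and remaining bile acids, whereas the distal colon dries and stores the stool beneath a firm mucus layer. Position along the gut is recorded by homeobox genes, among them the Hox clusters, in which genes of high paralog number act at posterior levels. The title of the series names Nox1 and Npy1r as marks of regional colon stem cells, and the comparison asks which genes separate these cells by region.

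The 8 libraries held 71575254 to 113917959 counts, with 19363 to 23032 genes detected. The first principal component of the 2000 most variable genes carried 71.1% of the variance and separated the distal libraries from the proximal ones. The labelled cell type was checked on epithelial markers. The adhesion gene Epcam had 1681, 1645, 1626 and 1550.2 counts scaled to library size (CPM) in the distal libraries and 1622, 1407, 1368 and 1557 CPM in the proximal libraries, and the keratin Krt8 lay at 1588, 2127, 1391 and 1654 CPM in the distal and 1524, 2225, 1904 and 2408 CPM in the proximal libraries. The summed CPM of 25 leukocyte genes was 3.56 to 8.82 in the distal and 8.09 to 16.8 in the proximal libraries, and Cd4 had no count. Library 1 of each part stood apart in the X-inactivation transcript Xist, with 376 CPM in the distal and 487 CPM in the proximal library, against at most 1.25 CPM in the other distal and 1.498 CPM in the other proximal libraries. Y-linked transcripts were present in all 8 libraries, with Ddx3y at 40.1 to 60.1 CPM in the distal and 46.1 to 55.6 CPM in the proximal libraries. Both parts carry this feature alike, and without the libraries numbered 1 the number of called genes below was 1359.

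In the GFP-high cells, 874 genes were higher and 947 genes were lower in the distal than in the proximal colon. These 1821 genes are 7.80% of the 23360 genes tested, 3.74% higher and 4.05% lower, at an adjusted p below 0.05. Of these, 1181 genes (5.06%) differed at least 2-fold. The libraries of the 2 parts did not overlap for 2718 genes (11.6%). The median log2 difference of all genes tested was 0.00. The shares of 3.74% higher and 4.05% lower are the background for every count of a gene list in GFP-high cells below.

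**Figure D1:**
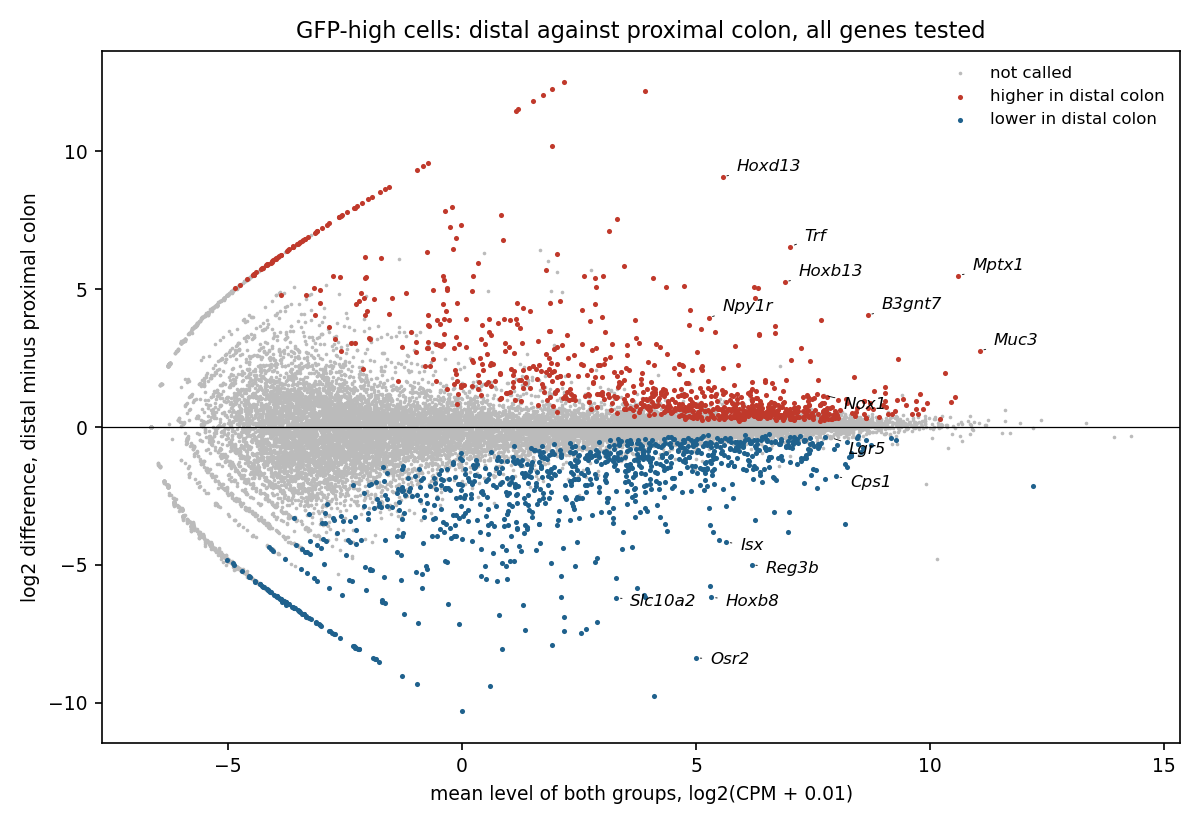
Log2 difference, distal minus proximal colon, of each of the 23360 genes tested in GFP-high cells, against its mean level on a log2 scale of CPM with 0.01 added. Colours mark the 874 genes called higher and the 947 called lower in the distal colon; Hoxd13 and Trf lie high, Osr2 and Hoxb8 low, and Lgr5 lies near the line.

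Among genes of at least 10 CPM in the higher part, the genes with the largest positive differences included Trf, which encodes the iron carrier transferrin. It had 206, 209, 348 and 262 CPM in the distal libraries and 1.81, 1.84, 5.11 and 2.28 CPM in the proximal libraries, a log2 difference of 6.54 ± 0.55 (SE), and the libraries did not overlap. Casp14, a caspase known from cornifying skin, had 35.3, 32.8, 30.7 and 21.6 CPM in the distal libraries, and 1 of the 4 proximal libraries held any count of it, at 0.0162 CPM. Mptx1, a pentraxin of secretory crypt cells, had 4312, 4856, 1363 and 1672 CPM in the distal libraries and 13.98, 50.6, 22.01 and 185 CPM in the proximal libraries. Distal libraries 1 and 2 were the highest for Mptx1, and every distal library lay above every proximal one. Rdx, which encodes radixin and links actin to the cell membrane, averaged 51.8 ± 8.83 CPM in distal and 1.504 ± 0.831 CPM in proximal libraries (SD, n = 4 each), with a log2 difference of 5.10 ± 0.51 (SE). Tgm3, an enzyme that crosslinks proteins in keratinized epithelia, had 149, 335, 43.01 and 62.1 CPM in the distal and 1.26, 2.55, 2.86 and 10.7 CPM in the proximal libraries, again with distal libraries 1 and 2 on top. The log2 difference was 7.53 for Lix1, 7.12 for the C-type lectin gene Chodl, 5.83 for the serine protease gene Tmprss13, 5.47 for Vtcn1, 5.39 for Atp10a, 5.06 for Itih2, 5.03 for Nxpe4 and 5.41 for AI854703, all called and without overlap. The other members of this group of 15 are Hoxd13 and Hoxb13, described with the Hox genes.

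The largest negative differences were led by transcription factors. Besides those and the Hox genes described below, the 15 genes included St3gal5, whose product makes the ganglioside GM3, with 0, 0, 0.219 and 0.0726 CPM in the distal and 13.1, 13.9, 9.60 and 12.8 CPM in the proximal libraries. Abca12, a lipid transporter, had 0.948, 0.782, 0.0219 and 0 CPM in the distal and 10.4, 39.2, 10.5 and 16.8 CPM in the proximal libraries. Neither gene overlapped between the parts. Rac2, a small GTPase best known from blood cells, had 0.426, 0.391, 0.481 and 0.556 CPM in the distal and 10.4, 16.6, 9.53 and 18.8 CPM in the proximal libraries, a log2 difference of -4.89 ± 0.57 (SE). Tuft and leukocyte genes are given further down, and their part in the Rac2 result was not tested.

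Lgr5, the gene that drives the sort, had 215, 145, 223 and 231 CPM in the distal and 334, 263, 257 and 202 CPM in the proximal GFP-high libraries. The libraries overlapped, and the log2 difference of -0.38 ± 0.26 (SE) was not called (adjusted p = 0.503). Nox1, which encodes a superoxide-producing NADPH oxidase of the colon epithelium, had 279.5, 226, 355 and 322 CPM in the distal and 98.5, 129, 177 and 129 CPM in the proximal libraries. All distal libraries lay above all proximal libraries, yet the log2 difference of 1.15 ± 0.51 (SE) missed the threshold with an adjusted p of 0.195 in the fit over all groups. In a fit restricted to these 2 groups, the adjusted p was 0.00219 at a log2 difference of 1.13. Npy1r, which encodes the Y1 receptor of neuropeptide Y, had 75.9, 51.02, 81.7 and 80.8 CPM in the distal and 2.81, 2.34, 7.04 and 6.31 CPM in the proximal libraries. The lowest distal library exceeded the highest proximal one several-fold, and the log2 difference was 3.97 ± 0.56 (SE, adjusted p = 5.45e-07).

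Of the 13 NADPH oxidase genes and partners tested, 1 was higher and none was lower, read against backgrounds of 3.74% and 4.05%. That gene was Cybb, the catalytic subunit of the phagocyte oxidase, at 0.426, 0.313, 0.197 and 0.0847 CPM in the distal and 0, 0.115, 0 and 0 CPM in the proximal libraries. The libraries overlapped, and Cybb was not called without distal library 1 or without proximal library 1, 3 or 4. With edgeR's newer quasi-likelihood method, and without all libraries numbered 1, the number of this list called higher was 0. It was 2 by DESeq2's Wald test and 3 in the fit restricted to these 2 groups. Duox2, a dual oxidase, and its maturation factor Duoxa2 had log2 differences of 0.76 ± 0.31 and 1.20 ± 0.43 (SE), which were not called although their libraries did not overlap. Of 4 neuropeptide Y receptor and ligand genes tested, 1 was called, Npy1r, and 2 were called without proximal library 4. The ligand gene Pyy had 9.64, 10.3, 11.1 and 14.4 CPM in the distal and 0.877, 3.76, 2.20 and 9.75 CPM in the proximal libraries, which overlapped (adjusted p = 0.076).

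**Figure D2:**
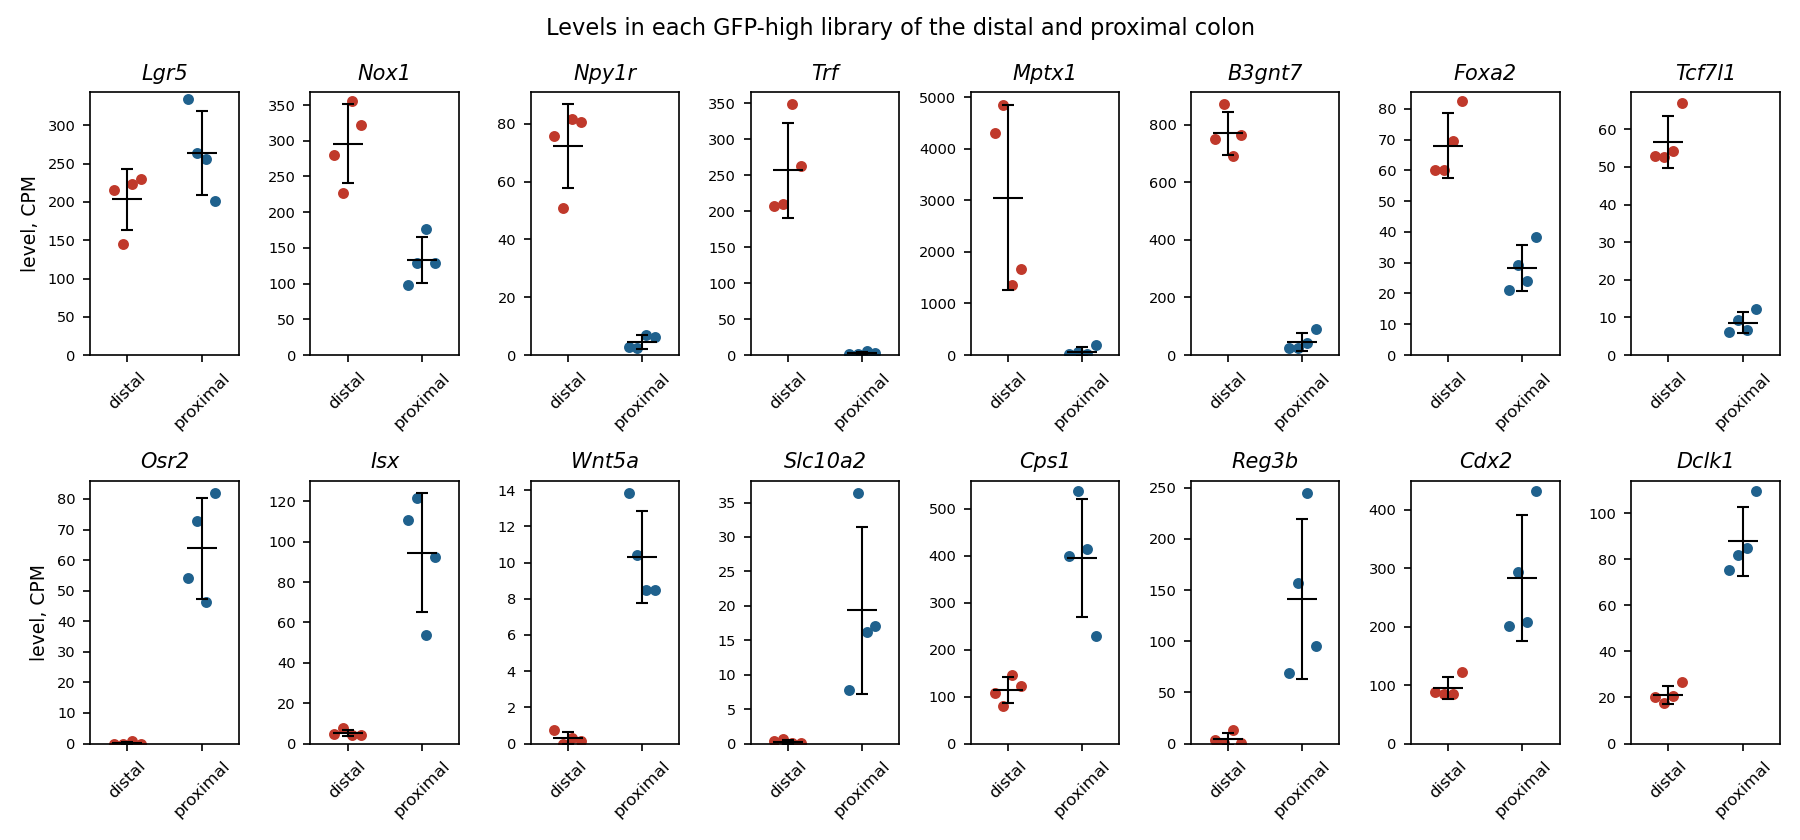
Levels in CPM of 16 genes in each GFP-high library, distal colon at the left and proximal colon at the right of each panel; points are libraries, the bars give the mean and SD of 4. Lgr5 overlaps between the parts, whereas Npy1r, Trf and B3gnt7 lie higher and Osr2, Isx and Wnt5a lower in every distal library.

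The promoters of 4 genes are shown here because the members they belong to carry the regional pattern: Hoxd13 and Npy1r were higher in the distal colon, and Hoxb8 and the bile acid transporter gene Slc10a2 were higher in the proximal colon. Each line gives the 250 bases before the annotated start, 5′ to 3′ in the direction of the gene, from RefSeq on GRCm38.p6. Capitals mark CAATAAA or its reverse complement TTTATTG, a core sequence bound by posterior Hox and Cdx proteins.
Hoxd13 (chr2:74667975-74668224, plus strand): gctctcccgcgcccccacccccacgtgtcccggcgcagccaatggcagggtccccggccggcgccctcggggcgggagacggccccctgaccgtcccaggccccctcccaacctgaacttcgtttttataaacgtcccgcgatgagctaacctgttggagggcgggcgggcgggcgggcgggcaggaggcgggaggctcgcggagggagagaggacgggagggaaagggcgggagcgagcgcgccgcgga
Hoxb8 (chr11:96281655-96281904, plus strand): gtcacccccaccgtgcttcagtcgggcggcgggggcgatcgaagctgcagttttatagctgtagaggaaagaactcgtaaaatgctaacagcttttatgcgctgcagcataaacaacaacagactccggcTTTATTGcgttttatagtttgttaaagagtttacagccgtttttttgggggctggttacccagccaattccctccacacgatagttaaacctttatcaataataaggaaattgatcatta
Slc10a2 (chr8:5105288-5105537, minus strand): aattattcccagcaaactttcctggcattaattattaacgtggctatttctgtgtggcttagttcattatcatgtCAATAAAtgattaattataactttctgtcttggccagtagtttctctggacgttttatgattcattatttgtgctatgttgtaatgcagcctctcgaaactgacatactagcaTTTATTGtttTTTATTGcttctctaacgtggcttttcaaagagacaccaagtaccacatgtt
Npy1r (chr8:66697172-66697421, plus strand): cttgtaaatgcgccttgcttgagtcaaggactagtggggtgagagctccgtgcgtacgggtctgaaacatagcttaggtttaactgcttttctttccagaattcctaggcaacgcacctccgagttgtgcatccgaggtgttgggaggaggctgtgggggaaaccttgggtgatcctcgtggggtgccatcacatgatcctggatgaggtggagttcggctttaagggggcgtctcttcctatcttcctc

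The core occurs 3 times before Slc10a2, at positions -175, -62 and -52 from the start, and 1 time before Hoxb8, at position -120. Neither the 250 bases shown for Hoxd13 nor those shown for Npy1r hold these letters. Searched on both strands over 300 bases (250 before to 50 after the start), the core was found in 4.60% of 32851 promoters, in 4.76% of 672 genes higher and in 4.71% of 701 genes lower in the distal colon, and in 3.39% of 14208 genes tested. The HNF4 motif CAAAGTCCA was found in 1.04% of the higher, 1.85% of the lower and 0.619% of the tested genes. The TCF/LEF motif CTTTGAT was found in 2.83% of the higher, 4.85% of the lower and 3.43% of the tested genes. These shares are descriptions; 1373 of the 1821 called genes had a promoter in the table. The reverse complement of the HNF4 motif ends in the letters CTTTG, with which the TCF/LEF motif begins, so that 1 stretch can hold both.

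In the HoxD and HoxB clusters the called genes of low paralog number were lower and those of high paralog number were higher in the distal colon. In the HoxD cluster 4 of 9 tested genes were higher and 3 lower in the distal colon. Hoxd13, the terminal gene of the cluster, had 91.6, 104, 101 and 82.99 CPM in the distal libraries and 0, 0, 0.681 and 0.0485 CPM in the proximal libraries. Hoxd10, Hoxd11 and Hoxd12 had no count in any proximal library. Their means in the distal libraries were 4.57 ± 1.29, 6.62 ± 1.98 and 7.53 ± 0.124 CPM (SD, n = 4). Against a floor of 3 counts per proximal library they were at least 148-fold, 215-fold and 244-fold higher in the distal colon. DESeq2's Wald test called 1 HoxD gene higher in place of the 4 called by edgeR. The anterior members went the other way. Hoxd4 had 0, 0, 0.0656 and 0.0484 CPM in the distal and 6.60, 4.63, 3.26 and 5.57 CPM in the proximal libraries, and Hoxd8 had 0, 0, 0.0984 and 0.194 CPM in the distal and 12.4, 9.13, 7.05 and 7.45 CPM in the proximal libraries. Hoxd3, the other gene called lower, had 0, 0, 0 and 0.0242 CPM in the distal and 0.622, 0.459, 0.454 and 0.800 CPM in the proximal libraries, and Hoxd9, between the sets, was not called (adjusted p = 0.819).

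In the HoxB cluster 1 of 9 tested genes was higher and 6 were lower in the distal colon. Hoxb13 had 204, 223, 208 and 292 CPM in the distal and 2.16, 1.26, 5.27 and 15.3 CPM in the proximal libraries, a log2 difference of 5.26 ± 0.55 (SE). Every distal library lay far above the proximal ones, among which library 4 was the highest. Hoxb8 had 0.948, 0.0912, 2.72 and 0.581 CPM in the distal and 78.5, 86.5, 74.4 and 78.1 CPM in the proximal libraries. Hoxb6 had 0.782, 1.21, 2.41 and 1.22 CPM in the distal and 60.1, 77.3, 81.1 and 88.3 CPM in the proximal libraries. For Hoxb8 and Hoxb6 alike, distal library 3 was the highest of its part and still far below the proximal range. The log2 differences were -6.16 for Hoxb3, -7.47 for Hoxb4, -5.85 for Hoxb5, -5.77 for Hoxb6, -6.07 for Hoxb7 and -6.18 for Hoxb8. Hoxb9, the next gene of the cluster, was expressed in both parts, at 78.3, 84.5, 77.2 and 67.2 CPM in the distal and 129, 124, 108 and 118 CPM in the proximal libraries. Its libraries did not overlap, and it was not called in the fit over all groups (log2 difference -0.64 ± 0.27, SE; adjusted p = 0.151); it was called in the fit restricted to these 2 groups (adjusted p = 0.0035) and with the newer quasi-likelihood method (adjusted p = 0.0421).

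The HoxA cluster was present in both parts, with 3 of 11 tested genes higher and 0 lower in the distal colon. Hoxa13 had 62.3, 62.9, 51.9 and 51.7 CPM in the distal and 10.7, 12.6, 8.19 and 17.5 CPM in the proximal libraries, a log2 difference of 2.22 ± 0.21 (SE). Hoxa9 and Hoxa10 had smaller log2 differences of 1.20 ± 0.26 and 1.21 ± 0.31 (SE), again without overlap. Of the HoxC genes 1 was tested and none was called. Hox clusters contain overlapping and antisense transcripts, and as strand use in the counting is not given in the sources used here, reads of such neighbours cannot be told apart.

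**Figure D3:**
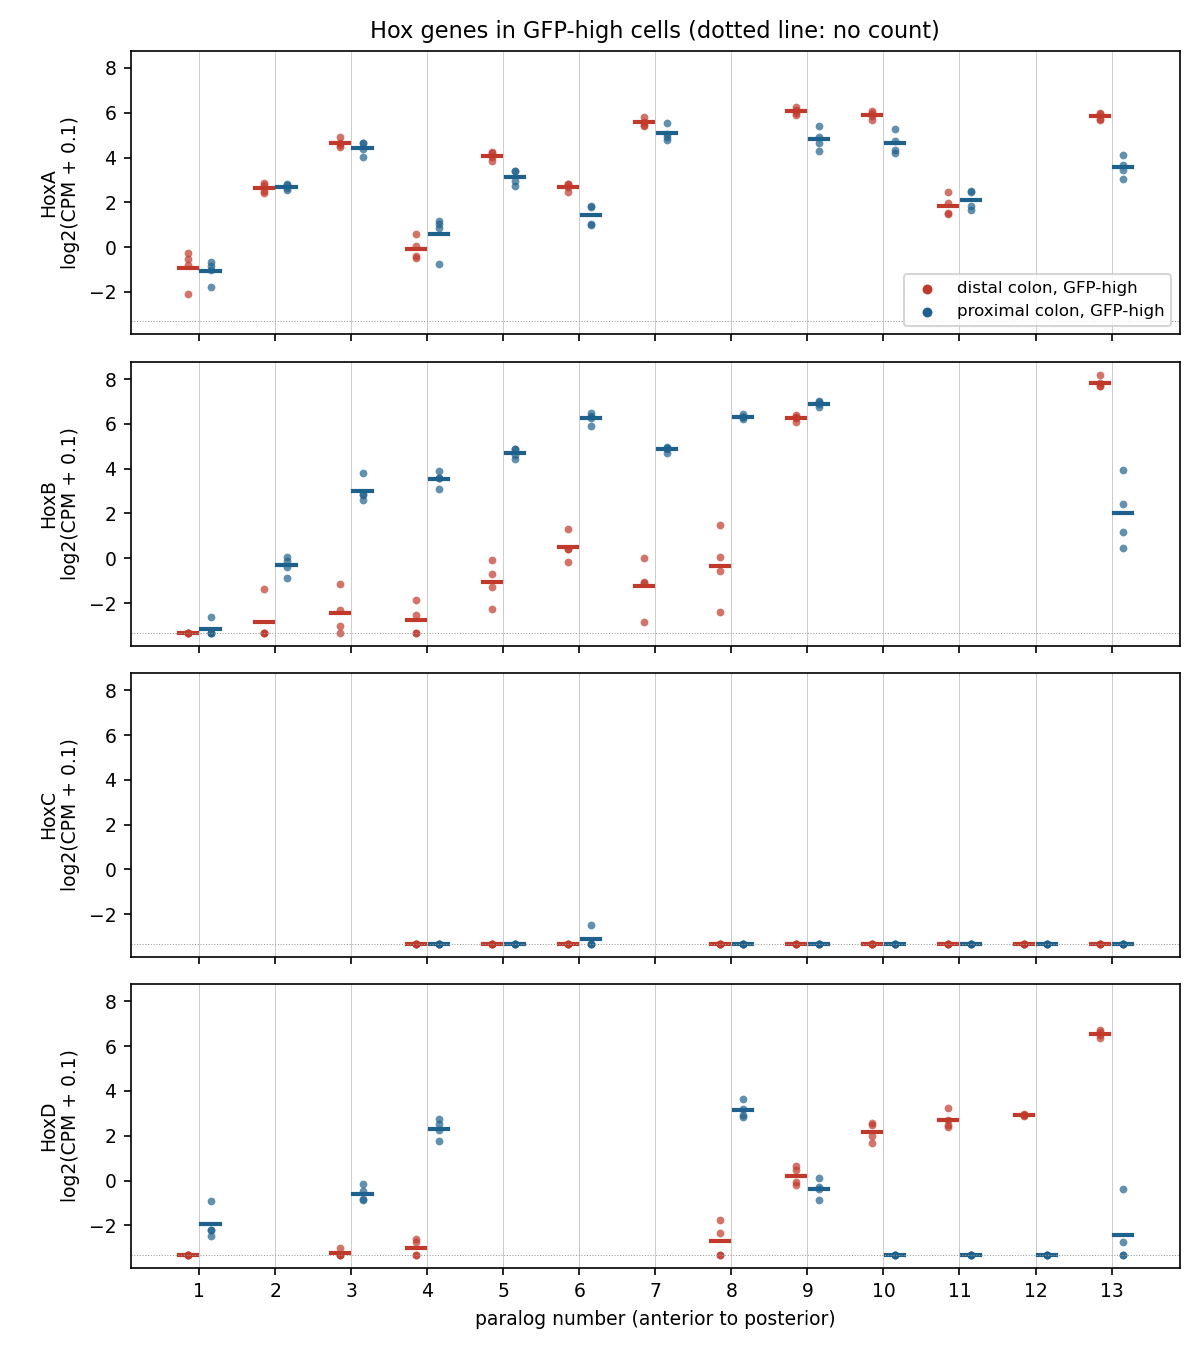
Levels of the Hox genes in GFP-high libraries, by cluster and paralog number, on a log2 scale of CPM with 0.1 added; points are libraries, short lines group means of these log2 values, distal colon left of proximal colon. Hoxb3 to Hoxb8 and Hoxd3, Hoxd4 and Hoxd8 lie lower, and Hoxb13 and Hoxd10 to Hoxd13 higher, in the distal colon, while HoxA genes are present in both parts.

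Outside the Hox clusters, 2 of 33 gut patterning transcription factors tested were higher and 9 were lower in the distal colon, against backgrounds of 3.74% and 4.05%. The median log2 difference was -0.05, and the number higher was 1 without any single library other than distal library 2. Osr2, a zinc finger gene, had 0, 0, 0.722 and 0 CPM in the distal and 54.1, 72.7, 46.4 and 81.9 CPM in the proximal libraries. The counts of the distal colon came from library 3 alone. Tbx3, a T-box repressor, had 0, 0.130, 1.05 and 0.435 CPM in the distal and 34.6, 38.1, 19.8 and 25.4 CPM in the proximal libraries, a log2 difference of -6.15 ± 0.60 (SE), and distal library 3 was again the highest of its part. Isx, an intestinal homeobox gene that restrains carotenoid uptake, had 4.85, 7.71, 4.31 and 4.16 CPM in the distal and 111, 122, 54.02 and 92.3 CPM in the proximal libraries, a log2 difference of -4.17 ± 0.27 (SE). Nr2e3, a nuclear receptor known from photoreceptors, had a log2 difference of -2.52 ± 0.33 (SE). Cdx2, which maintains intestinal identity, was expressed in both parts, at 88.2, 84.8, 85.5 and 123 CPM in the distal and 201, 293, 207 and 432 CPM in the proximal libraries, a log2 difference of -1.57 ± 0.29 (SE). Foxa2, a forkhead factor of endoderm, was higher in the distal colon, at 60.1, 59.99, 69.4 and 82.4 CPM against 21.3, 29.2, 23.96 and 38.2 CPM in the proximal colon.

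Of 30 genes listed as markers of crypt base stem cells, 2 were higher and 9 lower in the distal colon, against backgrounds of 3.74% and 4.05%. The median log2 difference was -0.16. Msi1, an RNA-binding protein of progenitor cells, had 2.24, 0.847, 3.78 and 5.56 CPM in the distal and 9.56, 7.98, 10.9 and 16.8 CPM in the proximal libraries. Prom1, which encodes the membrane protein CD133, had 151, 138, 134 and 156 CPM in the distal and 233, 313, 191 and 249.8 CPM in the proximal libraries. The hyaluronan receptor gene Cd44 had 201, 130.2, 303 and 208 CPM in the distal and 491, 353, 479 and 367 CPM in the proximal libraries. None of these 3 overlapped between the parts. The growth factor gene Pdgfa and the cell cycle kinase gene Cdk6 had log2 differences of -0.97 ± 0.20 and -0.70 ± 0.15 (SE). Aqp4, a water channel, and Igfbp4, which binds insulin-like growth factors, were the 2 higher genes, with log2 differences of 0.99 ± 0.22 and 1.28 ± 0.39 (SE). The Wnt targets Ascl2 and Axin2 were not called, with means of 51.5 ± 6.01 and 174 ± 35.7 CPM in distal and 59 ± 16.2 and 189.7 ± 16.2 CPM in proximal libraries (SD, n = 4 each). The number of genes of this list called higher was 1 without distal library 3 or 4 or proximal library 1 or 2, and 4 without distal library 2. Among 18 genes of reserve and regenerative stem cells, 2 were higher and 3 lower, with a median log2 difference of -0.26. The member with the smallest p was Ereg, which was lower and is given with the growth factors below. Of the higher ones, the alarmin gene Il33 had 18.04, 14.7, 11.04 and 10.9 CPM in the distal and 0.428, 0.711, 0.794 and 0.534 CPM in the proximal libraries. The other, the annexin gene Anxa3, had a log2 difference of 1.45 ± 0.26 (SE). Among 24 S phase genes and 24 mitosis genes, 0 were called by edgeR, 0 by DESeq2, and 0 had an unadjusted p below 0.05. Among 20 ribosome biogenesis genes 0 were called by either tool and 3 had an unadjusted p below 0.05; edgeR called 1 with the replicate block and 1 without distal library 2.

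Of 46 Wnt ligands, receptors and antagonists tested, 4 were higher and 9 lower in the distal colon, against backgrounds of 3.74% and 4.05%. The median log2 difference was 0.00. The number higher was 1 without distal library 4 or proximal library 1 and 2 without distal library 3 or proximal library 2 or 3, and the number lower was 5 without distal library 1 or 2 or proximal library 4. Among ligands, Wnt5a, which signals mostly outside the beta-catenin branch, had 0.758, 0, 0.328 and 0.145 CPM in the distal and 13.8, 10.4, 8.49 and 8.51 CPM in the proximal libraries, a log2 difference of -5.05 ± 0.66 (SE). Among receptors, the frizzled genes Fzd3 and Fzd5 were lower (-1.74 ± 0.32 and -0.52 ± 0.14, log2 difference with SE) and the co-receptor gene Lrp5 was higher (0.44 ± 0.12). The inhibitor gene Apcdd1 had 0.166, 0.261, 0.284 and 0.266 CPM in the distal and 2.83, 3.28, 3.25 and 2.46 CPM in the proximal libraries, without overlap. Tcf7l1, a TCF factor that represses Wnt targets in stem cells, had 52.8, 52.5, 54.3 and 66.9 CPM in the distal and 6.19, 9.35, 6.60 and 12.1 CPM in the proximal libraries, a log2 difference of 2.72 ± 0.47 (SE).

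Other signalling lists are given next, against backgrounds of 3.74% of all genes tested called higher and 4.05% called lower. Of 36 growth factor ligands and receptors, 2 were higher and 6 lower; the number higher was 0 without distal library 3 or 4 and 1 without distal library 1 or proximal library 1, 2 or 3. Ereg, a ligand of the EGF receptor, had 0.332, 0.130, 0.131 and 0.218 CPM in the distal and 8.35, 4.49, 3.05 and 2.41 CPM in the proximal libraries, a log2 difference of -4.48 ± 0.48 (SE). Pdgfc, a platelet-derived growth factor, was also lower (-2.59 ± 0.43, SE). In the BMP and activin list 2 of 33 genes were higher (1 without proximal library 3) and 3 lower. The antagonistic ligand Bmp3 had 48.2, 34.7, 42.5 and 38.04 CPM in the distal and 70.2, 87.4, 63.98 and 66.2 CPM in the proximal libraries, and the BMP target Id3 had a log2 difference of -1.15 ± 0.26 (SE), while the signal transducer Smad5 was higher (0.45 ± 0.09). In the Notch list 1 of 22 genes was called (2 higher with the replicate block, and 1 lower in addition without distal library 4), the receptor gene Notch4, at 13.3, 12.7, 16.7 and 18.2 CPM in the distal and 3.20, 5.69, 5.02 and 7.01 CPM in the proximal libraries. In the Eph list 1 of 16 genes was higher and 4 were lower; the number lower was 1 or 2 without any single library other than distal library 4 or proximal library 3, and the number higher was 0 without distal library 2 or 4 or proximal library 1 or 2. The receptor gene Epha7 led this list (-2.56 ± 0.41, SE). In the hedgehog list 1 of 11 genes was higher and 1 lower. The ligand gene Shh was lower, a call lost when all libraries numbered 1 were left out, at 0.521, 0.651, 1.43 and 1.38 CPM in the distal and 5.71, 3.81, 5.13 and 4.58 CPM in the proximal libraries. Gli3, a hedgehog effector, had 0.166, 0.365, 0.175 and 0.218 CPM in the distal libraries and no count in the proximal ones, at least 7.49-fold higher against a floor of 3 counts per proximal library; DESeq2's Wald test called 0 genes of this list higher. Among 36 hormone and neurotransmitter receptors, 3 were higher and 2 lower: beside Npy1r, the prostaglandin receptor gene Ptger4 was higher (0.59 ± 0.14, SE) and the adrenergic receptor gene Adra2a was lower (-1.49 ± 0.25, SE). Among 14 Kruppel-like factors 0 were called in edgeR's fit over all groups and 0 by DESeq2, and 4 had an unadjusted p below 0.05. With edgeR's newer quasi-likelihood method 3 were called, all higher, and 1 was called with the replicate block, in the fit restricted to these 2 groups or without proximal library 1.

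Glycan transferases, which build mucin and membrane sugar chains, were called in both directions: 16 of 64 tested were higher (25% against the background of 3.74%) and 9 were lower, with a median log2 difference of 0.09. B3gnt7, which extends chains with N-acetylglucosamine, had 752, 871, 693 and 764 CPM in the distal and 24.02, 26.1, 41.8 and 92 CPM in the proximal libraries, a log2 difference of 4.06 ± 0.34 (SE). B4galnt3, which adds N-acetylgalactosamine, had 186, 164, 170.3 and 239 CPM in the distal and 13.5, 15.9, 11.8 and 18.3 CPM in the proximal libraries, a log2 difference of 3.67 ± 0.21 (SE). Fut9, a fucosyltransferase, had 179, 165, 198 and 207 CPM in the distal and 16, 10.6, 22.04 and 21.3 CPM in the proximal libraries. The distal levels of these 3 genes exceeded every proximal level. Sialyltransferase genes split: St3gal6 had 345, 294, 259.6 and 267 CPM in the distal and 48.5, 56.9, 45.7 and 68.1 CPM in the proximal libraries, while St3gal1 had 4.00, 2.24, 3.85 and 3.12 CPM in the distal and 21.9, 45.6, 18.6 and 23.6 CPM in the proximal libraries. Their log2 differences were 2.41 ± 0.15 and -3.05 ± 0.25 (SE).

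Of 28 goblet cell genes, 5 were higher and 0 lower in the distal colon by edgeR, with a median log2 difference of 0.26; DESeq2 called 6 higher and 0 lower, and at an unadjusted p below 0.05 there were 8 and 0. The mucin genes Muc13 and Muc1 had log2 differences of 0.86 ± 0.17 and 2.15 ± 0.52 (SE), without overlap. The main secreted mucin gene, Muc2, was not called, at 13772 ± 1880.3 CPM in distal and 17492 ± 7254 CPM in proximal libraries (SD, n = 4 each). Clca1, a mucus-processing protease, had 3339, 3924, 456 and 468 CPM in the distal and 312, 986, 208 and 609 CPM in the proximal libraries. Its groups overlapped, distal libraries 1 and 2 were far above 3 and 4, and its call was lost without distal library 1 (1.61, adjusted p = 0.0575), distal library 2 (1.43, adjusted p = 0.089) or proximal library 3 (1.69, adjusted p = 0.0525). The goblet cell factor Creb3l1 was called with a log2 difference of 0.81 ± 0.22 (SE) and missed the threshold without distal library 4 (0.65, adjusted p = 0.0904), proximal library 1 (0.70, adjusted p = 0.0687) or proximal library 3 (0.71, adjusted p = 0.0652). The number of goblet genes called higher was 2 without proximal library 3 and 3 without distal library 1, distal library 2 or proximal library 1. The summed goblet levels overlapped, at 22180 to 27740 CPM in the distal and 15560 to 35730 CPM in the proximal libraries. In these bulk libraries fewer cells of a type and less RNA per cell cannot be told apart.

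Among 13 genes of deep crypt secretory cells, which sit between the colon stem cells, 2 were higher and 1 lower. Besides Mptx1, the phospholipase gene Pla2g2a had 15.99, 13.1, 19.1 and 12.9 CPM in the distal and 3.48, 3.07, 2.73 and 5.92 CPM in the proximal libraries, and the chemokine gene Ccl9 was lower (-1.30 ± 0.26, SE). Of 61 mucosal defence genes, 12 were higher and 7 lower, with a median log2 difference of 0.27. Beyond Trf and Il33, the phospholipase gene Pla2g5 had 29.5, 33.4, 42.9 and 44.7 CPM in the distal and 3.82, 5.82, 8.37 and 16.04 CPM in the proximal libraries. The inflammasome sensor gene Nlrp6 was lower, at 256, 213, 279 and 289.6 CPM in the distal and 547, 462, 393 and 522 CPM in the proximal libraries. Reg3b, an antibacterial lectin, had 2.99, 0.729, 13.5 and 0.411 CPM in the distal and 69.2, 156, 245 and 95.02 CPM in the proximal libraries, a log2 difference of -4.99 ± 0.94 (SE). Its paralog Reg3g had 6.37, 0.808, 11.2 and 1.48 CPM in the distal and 60.9, 91.3, 136 and 53.3 CPM in the proximal libraries. Library 3 was the highest of its part for both Reg3 genes in both parts. Reg3, Mptx and the enzyme families below contain close copies, and how the authors' counting shared reads among them is not given in the sources used here.

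Of 50 genes of colon ion and water transport, 6 were higher and 9 lower in the distal colon, against backgrounds of 3.74% and 4.05%. The median log2 difference was -0.12. The anion channel gene Best2, known from goblet cells, had 74.7, 54.4, 36.7 and 56.5 CPM in the distal and 2.59, 2.87, 1.34 and 4.75 CPM in the proximal libraries, a log2 difference of 4.26 ± 0.50 (SE). Atp12a, the colonic proton pump, had 7.39, 17.9, 2.02 and 2.78 CPM in the distal libraries, and 1 of the 4 proximal libraries held any count of it, at 0.0162 CPM. Distal libraries 1 and 2 were the highest for Atp12a. Car8, a carbonic anhydrase relative without enzyme activity, had 34.9, 24.96, 24.7 and 22.1 CPM in the distal and 300.4, 267, 154 and 181 CPM in the proximal libraries, a log2 difference of -3.08 ± 0.24 (SE). The membrane carbonic anhydrase gene Car12 was lower as well (-1.21 ± 0.18, SE). The number called lower was 5 without distal library 3 and likewise without proximal library 2.

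The surface colonocyte list, which marks differentiated absorptive cells, had 2 of 25 genes higher and 8 lower, with a median log2 difference of -0.76. Muc3, a membrane mucin, had 3662, 4781, 3373 and 3150.4 CPM in the distal and 446, 822, 451 and 491 CPM in the proximal libraries. Emp1, an epithelial membrane protein, had 29.96, 37.7, 6.97 and 12.8 CPM in the distal and 103, 288, 135 and 204 CPM in the proximal libraries. Guca2a, which encodes guanylin, and the fatty acid binding protein gene Fabp2 had log2 differences of -1.45 ± 0.22 and -1.87 ± 0.29 (SE). The keratin Krt20, which marks the surface, had 44.2, 67.4, 17.2 and 23.1 CPM in the distal and 58.9, 178, 95.5 and 172 CPM in the proximal libraries, so that distal libraries 1 and 2 and proximal libraries 2 and 4 were the highest of their parts. The summed list overlapped, at 5672 to 9734 CPM in the distal and 5612 to 10890 CPM in the proximal libraries, and its part in the results was not tested. The number lower was 5 without distal library 3 or proximal library 2, and the number higher was 1 without distal library 1 or 2 or proximal library 1, 3 or 4.

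Of 13 genes of bile acid handling, 4 were lower and 0 higher in the distal colon by edgeR and likewise by DESeq2; at an unadjusted p below 0.05, 5 were lower and 0 higher. The median log2 difference was -0.25. Slc10a2, the sodium-dependent bile acid importer whose promoter is shown above, had 0.308, 0.677, 0.0656 and 0.0242 CPM in the distal and 7.73, 36.4, 16.2 and 17.1 CPM in the proximal libraries, a log2 difference of -6.19 ± 0.74 (SE). Slc51a and Slc51b encode the subunits of the exporter. Slc51a had 0, 0.365, 0.0656 and 0.0242 CPM in the distal and 5.63, 25.4, 10.7 and 16.7 CPM in the proximal libraries, and Slc51b had 1.48, 0.964, 0.415 and 0.435 CPM in the distal and 1.56, 2.59, 3.04 and 3.27 CPM in the proximal libraries. Slc51b missed the threshold without distal library 3 (log2 difference -1.44, adjusted p = 0.0819) and without distal library 4 (-1.46, adjusted p = 0.0785). Nr1h4, which encodes the bile acid receptor FXR, had 20.8, 23.8, 13.6 and 14.5 CPM in the distal and 45.8, 62.3, 45.2 and 54.5 CPM in the proximal libraries, a log2 difference of -1.51 ± 0.18 (SE).

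Xenobiotic metabolism was the largest list, and 28 of its 77 genes tested were lower and 7 higher in the distal colon. The backgrounds were 4.05% lower and 3.74% higher, and the median log2 difference of the list was -0.38. Ugt2b5, a glucuronosyltransferase, had 8.17, 5.94, 6.93 and 3.51 CPM in the distal and 91.9, 76.5, 58.1 and 62.8 CPM in the proximal libraries. Ces1g, a carboxylesterase, had 12.7, 18.1, 8.54 and 14.4 CPM in the distal and 134, 186, 109 and 129 CPM in the proximal libraries. The cytochrome P450 gene Cyp2c65 had 4.90, 11.3, 2.27 and 3.50 CPM in the distal and 58.8, 112, 60.1 and 77.6 CPM in the proximal libraries. None of these 3 overlapped, and the sulfotransferase gene Sult1d1 followed with a log2 difference of -2.04 ± 0.20 (SE). Adh1, an alcohol dehydrogenase that also oxidizes retinol, went the other way, with 1276, 1095, 777 and 1179.9 CPM in the distal and 182, 138, 168 and 294 CPM in the proximal libraries, a log2 difference of 2.47 ± 0.24 (SE).

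Of 26 genes of the urea cycle and arginine metabolism, 3 were higher and 7 lower, against backgrounds of 3.74% and 4.05%. Nags makes N-acetylglutamate, the activator of the first step of the cycle, and had 0.213, 0.443, 0.186 and 0.484 CPM in the distal and 7.72, 7.11, 2.96 and 6.33 CPM in the proximal libraries. Cps1, the enzyme of that step, had 107, 80.7, 145 and 123 CPM in the distal and 399, 537, 414 and 229 CPM in the proximal libraries, a log2 difference of -1.79 ± 0.22 (SE). Otc, which acts next and yields citrulline, had 27.8, 23.6, 29.5 and 24.8 CPM in the distal and 69.04, 58.8, 51.3 and 52.2 CPM in the proximal libraries. These 3 genes of neighbouring steps were lower in the distal colon without overlap. Gatm, which uses arginine for creatine synthesis, was higher, at 33.3, 33.7, 37.1 and 28.9 CPM in the distal and 5.30, 3.21, 5.02 and 4.28 CPM in the proximal libraries.

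In the fatty acid oxidation list 8 of 34 genes were lower and 0 higher by both edgeR and DESeq2 (12 and 2 at an unadjusted p below 0.05), among them the peroxisomal thiolase gene Acaa1b (-3.26 ± 0.67, SE), the regulator gene Ppara (-1.08 ± 0.28) and the isomerase gene Ech1 (-0.53 ± 0.13). The number was 3 without distal library 3. Fabp1, a fatty acid binding protein of the small intestine and liver, had no count in the distal libraries and 0.367, 0.252, 0.647 and 0.841 CPM in the proximal ones, at least 14.7-fold lower in the distal colon against a floor of 3 counts per distal library. Of 26 genes of small intestinal enterocytes, 3 were higher (1 without any single library other than distal library 3 or proximal library 2) and 10 lower, with the disaccharidase gene Sis at 0.166, 0.130, 0.503 and 0.484 CPM in the distal and 4.99, 7.61, 2.02 and 3.98 CPM in the proximal libraries, and the alkaline phosphatase gene Alpi at 1.26, 1.62, 0.415 and 0.363 CPM in the distal and 2.98, 11.6, 5.86 and 9.40 CPM in the proximal libraries. Of 23 genes of cholesterol synthesis, 2 were higher, Dhcr7 (0.43 ± 0.11, SE) and Sqle (0.52 ± 0.17); the number was 4 with the replicate block, 0 without proximal library 1, 1 without distal library 1, 3 or 4 or proximal library 3, 5 without proximal library 2 and 6 without distal library 2.

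In GFP-high cells, markers of tuft cells were lower in the distal colon, and the other fractions are given further down. Of 25 tuft cell genes, which mark chemosensory cells of the epithelium, 18 were lower and 0 higher in the distal colon, with a median log2 difference of -1.99. DESeq2 called 20 lower and 0 higher, and at an unadjusted p below 0.05 there were 23 and 0. Dclk1, a kinase used as a tuft marker, had 20, 17.5, 20.7 and 26.6 CPM in the distal and 75.6, 81.8, 84.8 and 109.7 CPM in the proximal libraries. Trpm5, the cation channel of taste signalling, had 13.8, 13.5, 12.6 and 15.6 CPM in the distal and 42.8, 51.7, 61.01 and 91.4 CPM in the proximal libraries. The cyclooxygenase gene Ptgs1 and the G protein regulator gene Rgs13 had log2 differences of -2.85 ± 0.34 and -2.23 ± 0.30 (SE). The lineage factor Pou2f3 overlapped between the parts (-1.04 ± 0.30, SE). The summed CPM of the 25 genes was 111 to 146 in the distal and 373 to 601 in the proximal libraries, and none of the 25 was at 0 throughout. Under the alternatives tried, 14 to 20 of the 25 were called lower and 0 higher.

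Of 34 enteroendocrine genes, which mark hormone-secreting cells, 1 was higher (2 with the replicate block, 4 without proximal library 4) and 6 lower in the distal colon. The backgrounds were 3.74% higher and 4.05% lower. The prohormone convertase gene Pcsk1 had 23.3, 16.4, 18.7 and 22.6 CPM in the distal and 73.7, 69.03, 43.2 and 59.5 CPM in the proximal libraries. Tph1, the enzyme that starts serotonin synthesis, had 1.94, 2.96, 2.36 and 2.65 CPM in the distal and 8.69, 18.9, 11.9 and 18.98 CPM in the proximal libraries, and the secretin gene Sct had a log2 difference of -3.55 ± 0.50 (SE). The summed list was 161 to 197 CPM in the distal and 192 to 509 CPM in the proximal libraries. Stromal genes summed to 18.9 to 24.1 CPM in the distal and 14.2 to 17.8 CPM in the proximal libraries, with 1 of 19 called higher (Lyve1, 1.00 ± 0.22, SE) and Cdh5 and Rgs5 at 0. Of 25 leukocyte genes 1 was lower (Itgam, -1.72 ± 0.28, SE), or 2 without distal library 2 or proximal library 3. Of 25 dissociation stress genes 1 was lower (Socs3, -1.73 ± 0.41, SE), or 2 with the replicate block or without proximal library 2 or 4. The stress genes summed to 4400 to 7042 CPM in the distal and 4039 to 6489 CPM in the proximal libraries. The part of these cell types in the results was not tested.

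**Figure D4:**
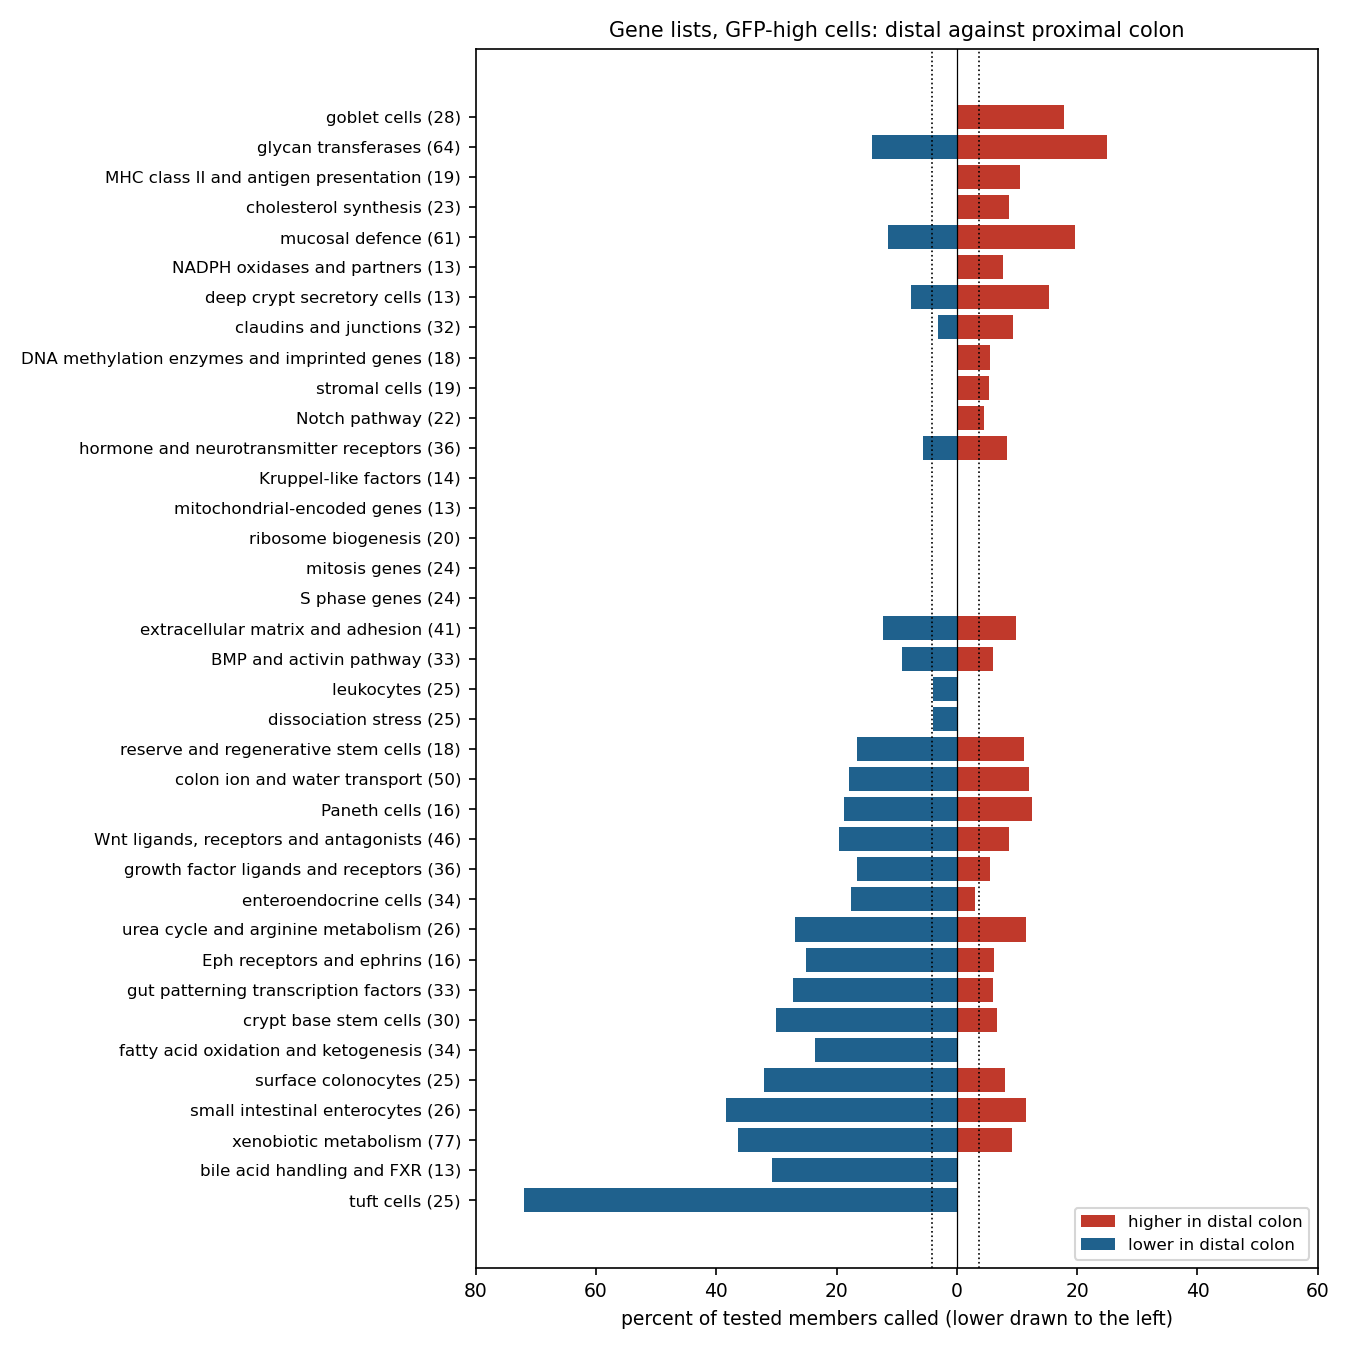
Percent of the tested members of each list that were called in GFP-high cells, to the right for genes higher and to the left for genes lower in the distal colon; numbers in brackets are the members tested, lists of at least 13 are drawn, and the dotted lines give the backgrounds of 3.74% and 4.05%. Tuft cell genes reach farthest to the left, followed by small intestinal enterocyte, xenobiotic, surface colonocyte and bile acid genes, and glycan transferases, mucosal defence and goblet cell genes reach farthest to the right.

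The distal colon was set against the proximal colon in the other GFP fractions too. In GFP-intermediate cells 1715 genes (7.34%) were called, 3.27% higher and 4.07% lower in the distal colon, and in GFP-negative cells 3168 genes (13.6%), 6.39% higher and 7.17% lower. Of the genes called in GFP-high cells, 1216 were also called in GFP-intermediate cells, which is 66.8% of the first and 70.9% of the second list, and 1215 of them differed in the same direction. With GFP-negative cells 1241 were shared, 68.1% of the GFP-high and 39.2% of the GFP-negative list, and 1227 differed in the same direction. In GFP-negative cells the log2 differences were 5.47 for Hoxb13, -6.52 for Hoxb8 and 1.65 for Hoxa13, in the same directions as in GFP-high cells. The difference between the regional effects in GFP-high and GFP-negative cells was called for 144 genes (0.616%), 84 with a more positive (0.360%) and 60 with a more negative value in GFP-high cells (0.257%). This count was 83 without proximal GFP-negative library 3, 91 without distal GFP-negative library 2 and 71 without the libraries numbered 1.

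Npy1r was among the 84. In GFP-negative cells it averaged 17.3 ± 2.02 CPM in distal and 11.1 ± 5.91 CPM in proximal libraries (SD, n = 4 each), and its regional log2 differences in GFP-high and GFP-negative cells differed by 3.33 ± 0.72 (SE, adjusted p = 0.0103). That call was lost without GFP-negative proximal library 3 (2.89, adjusted p = 0.0514), when all libraries numbered 1 were left out (3.18, adjusted p = 0.06) and in DESeq2's Wald test (3.34, adjusted p = 0.0642); over all alternatives the adjusted p stood between 1.57e-07 and 0.0642. Trf averaged 34.8 ± 9.04 CPM in distal and 4.18 ± 3.56 CPM in proximal GFP-negative libraries, a difference of effects of 3.49 ± 0.64 (SE), and Rdx had one of 3.23 ± 0.63 (SE). Tac1, the substance P precursor, and Slc18a1, a monoamine transporter of enterochromaffin cells, were called through the GFP-negative fraction. Tac1 averaged 3.66 ± 0.715 CPM in distal and 21.6 ± 10.5 CPM in proximal GFP-negative libraries, and Slc18a1 averaged 7.88 ± 1.53 CPM in distal and 72.1 ± 34.5 CPM in proximal ones. In GFP-high cells neither was called in the fit over all libraries; without proximal library 3, Slc18a1 was (log2 difference -0.89, adjusted p = 0.0139). The decarboxylase gene Ddc had 132, 130.1, 157 and 173 CPM in the distal and 54.1, 52.9, 50.3 and 65.6 CPM in the proximal GFP-high libraries, against means of 114 ± 9.82 CPM in distal and 105 ± 23.01 CPM in proximal GFP-negative libraries (SD, n = 4 each). Fgfbp1, which releases fibroblast growth factors from the matrix, had a difference of effects of 1.09 ± 0.18 (SE). In the fit restricted to the groups of this contrast, the calls of Fgfbp1 (adjusted p = 0.062) and Slc18a1 (adjusted p = 0.0643) were lost.

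Tuft cell genes made up 15 of the 60 genes with a more negative regional difference in GFP-high cells. That is 15 of the 25 tuft genes tested, against 0.257% of all genes tested. Dclk1 averaged 116 ± 24.7 CPM in distal and 71.1 ± 27.1 CPM in proximal GFP-negative libraries (SD, n = 4 each), the opposite order to GFP-high cells. Its regional log2 differences in the 2 fractions differed by -2.75 ± 0.41 (SE, adjusted p = 5.3e-05). The same value was -2.88 ± 0.38 for Trpm5, -2.92 ± 0.41 for Rgs13, -2.91 ± 0.39 for Sh2d7 and -2.59 ± 0.39 for Pik3r5, each with its SE. The summed tuft list was 437 to 557 CPM in the distal and 240 to 368 CPM in the proximal GFP-negative libraries, the reverse of the order in GFP-high libraries. In GFP-negative cells 3 of the 25 tuft genes were called higher and 1 lower in the distal colon, against 6.39% and 7.17% of all genes tested. Few members were thus called there, and the median log2 difference of the list was 0.75. GFP-intermediate cells were like GFP-high cells here, with 16 of the 25 called lower, 0 higher and a median log2 difference of -1.67. The backgrounds in GFP-intermediate cells were 4.07% lower and 3.27% higher. Cps1 differed between fractions as well: it averaged 22.2 ± 2.72 CPM in distal and 23.03 ± 9.97 CPM in proximal GFP-negative libraries, and the difference of effects was -1.74 ± 0.31 (SE), a call lost in the fit restricted to the groups of this contrast (adjusted p = 0.103).

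**Figure D5:**
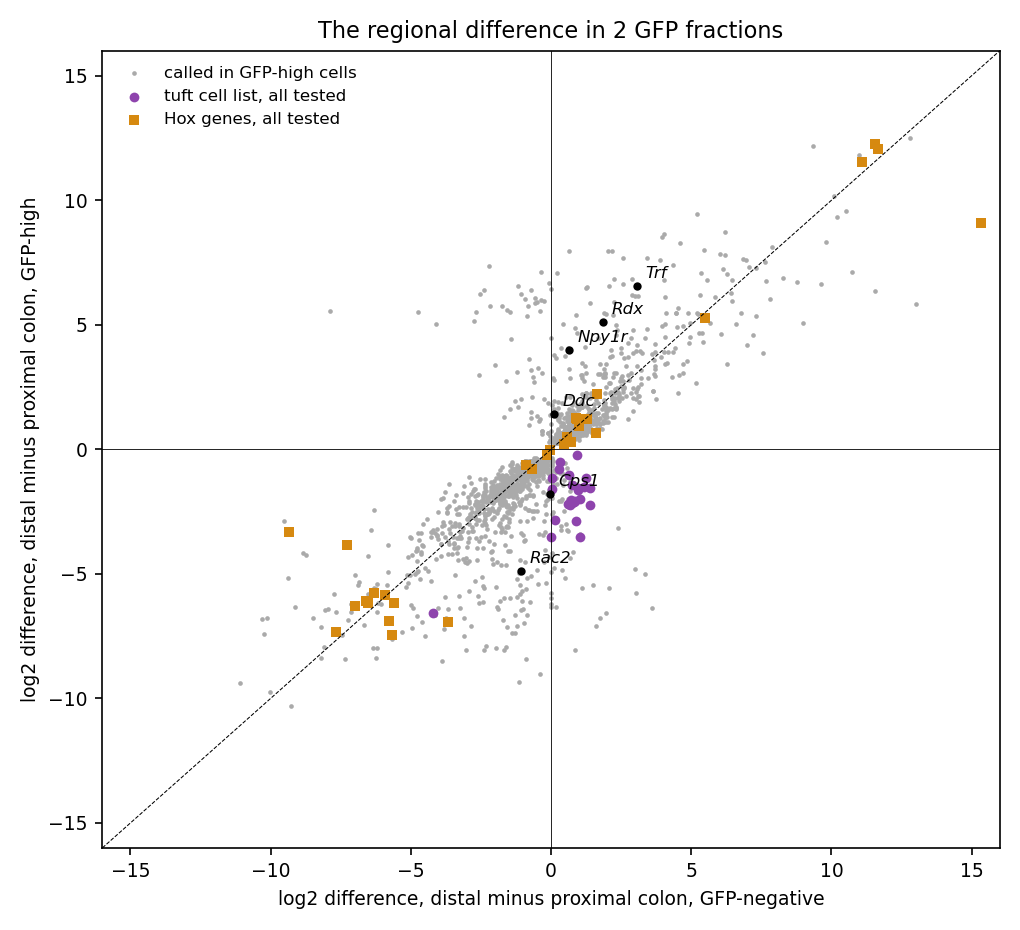
Log2 difference, distal minus proximal colon, in GFP-high cells against the same difference in GFP-negative cells, for the genes called in GFP-high cells, with Hox and tuft cell genes drawn whether called or not; the dashed line marks equal differences. Most Hox genes lie near the line, most tuft cell genes lie below 0 in GFP-high cells and above 0 in GFP-negative cells, and Npy1r, Trf, Rdx and Ddc lie above the line.

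The distal against the proximal part of the small intestine, which was cut into 3, gave another axis, again in GFP-high cells with 4 libraries each. It called 2759 genes (11.8%), 6.39% higher and 5.42% lower, of which 515 were also called along the colon, 28.3% of the colon list and 18.7% of the small intestinal list. Without distal small intestinal library 1 the count along the small intestine was 1566. Of the shared genes, 253 differed in the same direction and 262 in the opposite one. The difference between the 2 axes was called for 1992 genes (8.53%), with 3.36% more positive and 5.17% more negative in the colon. Hoxb8 averaged 21.4 ± 6.51 CPM in the distal and 0.0223 ± 0.0446 CPM in the proximal small intestine (SD, n = 4 each), with the counts of the proximal small intestine in 1 of its 4 libraries; it was higher in the distal small intestine and lower in the distal colon. Slc10a2 averaged 21.3 ± 10.6 CPM in the distal and 0.354 ± 0.178 CPM in the proximal small intestine, and the axes differed by -12.08 ± 1.04 (SE). Reg3b was likewise higher in the distal small intestine (3.08 ± 0.86, SE) and lower in the distal colon. Isx averaged 65.8 ± 16.7 CPM in the distal and 65.9 ± 16.7 CPM in the proximal small intestine (adjusted p = 1.00), and the axes differed by -4.17 ± 0.34 (SE). Trf, high in the distal colon, had 1.64 ± 0.427 CPM in the distal and 3.95 ± 1.02 CPM in the proximal small intestine, and the axes differed by 7.80 ± 0.70 (SE). Nox1 was called along the small intestine, at 83.5 ± 14.5 CPM in the distal and 5.02 ± 4.51 CPM in the proximal part. Npy1r averaged 0.0438 ± 0.0535 CPM in the distal and 0.00714 ± 0.0143 CPM in the proximal small intestine.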

How the data were processed

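PolyA RNA-seq counts of sorted mouse intestinal cells were used as deposited: whole-number counts of reads per gene, 55357 genes in 60 libraries of 15 groups. STAR, featureCounts of Subread, edgeR and the build mm10 are named in the submitters' processing notes; versions, annotation release and strand setting are not given in the sources used here. Samples were grouped by title. The members and the 46 gene lists were chosen with earlier results of these data known.

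All 60 libraries entered 1 fit with a mean per group (edgeR 4.0.16, R 4.3.3). Genes with low counts were removed (filterByExpr, 23360 genes left, at least 99.967% of each library's counts kept), libraries were scaled by TMM, and differences were tested by edgeR's quasi-likelihood test with 45 residual degrees of freedom and Benjamini-Hochberg adjustment. A gene was called at an adjusted p below 0.05. CPM use the TMM-scaled library sizes, and errors of log2 differences are standard errors. Total counts of 71575254 to 113917959 per colon GFP-high library give a floor of 3 counts, 0.0359 CPM in distal and 0.0308 CPM in proximal libraries; floors cover counting error only. Promoter sequences are from RefSeq, GRCm38.p6, matched by symbol; the promoters and motifs shown were chosen after values had been seen.

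Genes named are Lgr5, Nox1 and Npy1r; up to 15 per direction with the largest called difference, at least 10 CPM and no overlap; of each list the 4 with the smallest p; and up to 6 per direction with the smallest p of the GFP-high minus GFP-negative difference. A selection of these is printed. Named outside this rule, after their values had been seen, are Aqp4, Ascl2, Axin2, Cd44, Cdx2, Cyp2c65, Foxa2, Fut9, Fzd5, Hoxb3, Hoxb9, Hoxd3, Hoxd4, Hoxd8, Hoxd9, Igfbp4, Krt8, Lrp5, Muc2, Nr2e3, Pou2f3 and Reg3g. Results on some items are not reported here.

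The deposited table's batch column equals the replicate number in all 60 libraries, so each batch holds both parts. Deviations from the group means over 8000 genes correlated between same-numbered distal and proximal libraries (0.492, 0.283, 0.568 and 0.514), so the numbers were taken to pair the libraries, and a fit with the number as a block was run. Other alternatives were DESeq2 size factors, no filter, DESeq2 1.42.0's Wald test, a fit of only the groups compared, the newer quasi-likelihood method, a 2-fold minimum, the omission of each library and the omission of all libraries numbered 1.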

Additional observations from a re-analysis of the deposited data

Results flagged for a closer look

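In 13 of 212 groups of 4 libraries checked, the highest or lowest library stood apart by more than Dixon's 95% critical value, the gap to its nearest neighbour divided by the range of the group; chance flags about 1 in 20 groups. Library 3 stood apart as the highest of the distal colon for Osr2 (1.000) and of the proximal colon for Hoxd13 (0.929) and Trf (0.859), and as the lowest of the proximal colon for Slc18a1 (0.843). Among distal libraries, library 4 was the high one for Cdx2 (0.912) and Tcf7l1 (0.876), and library 2 for Pdgfa (0.896) and Anxa3 (0.884). Among proximal libraries, library 4 was the high one for Tgm3 (0.832) and Ptgs1 (0.851), library 2 for Muc3 (0.879) and Sqle (0.833), and library 1 was the low one for Bmp7 (0.830).

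The regional log2 difference differed between GFP-high and GFP-negative cells, by the interaction term of the same edgeR fit, in 16 of the 106 genes followed through the alternatives. The share over all genes tested was 0.616%. Some of the 16 were named for their small p of this same term, so the 2 shares cannot be compared. The regional log2 difference was more positive in GFP-high cells by 3.33 for Npy1r, 3.49 for Trf, 3.23 for Rdx, 2.94 for Tac1, 2.65 for Slc18a1, 1.30 for Ddc, 1.14 for Car12, 1.09 for B4galnt3, 1.09 for Fgfbp1 and 1.00 for Bmp3. The difference, GFP-high minus GFP-negative, was -3.82 for Rac2, -3.0 for Ptgs1, -2.92 for Rgs13, -2.88 for Trpm5, -2.75 for Dclk1 and -1.74 for Cps1.

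Of the genes followed along the small intestine, 8 had a distal minus proximal difference in the colon that differed from that in the small intestine by the interaction term. Those followed were a selection, so this count cannot be compared with the 8.53% of all genes tested. The value, colon minus small intestine, was -12.08 for Slc10a2, -11.04 for Hoxb6, -8.53 for Slc51a, -8.07 for Reg3b, -4.17 for Isx, -1.84 for Cyp2c65 and 7.80 for Trf. For Hoxb8 the fitted value was -15.98, which rests on counts in 1 of the 4 proximal small intestinal libraries and depends on how counts of 0 are treated.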

How the results depend on the processing

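Some named genes were not followed through the alternatives one by one, among them Shh, Cybb, Gli3 and Hoxd10 to Hoxd12. Calls that these lost are given with their lists. In the 106 named genes that were followed, 0 changed direction. Calls were lost for Bmp7, Clca1, Creb3l1, Slc51b, Dhcr7 or Sqle in 17 cases over the fits with 1 library left out (830 cases kept their side of the threshold), in 5 genes without the libraries numbered 1 and in 2 with only the groups compared; Nox1, Hoxb9 and Slc18a1 became called in at least 1 alternative. The replicate block changed no call of these 106 genes; with it 2007 genes were called in GFP-high cells, 1890 in GFP-intermediate cells, 3358 in GFP-negative cells, 175 in the contrast of fractions, 3114 along the small intestine and 2166 between the axes.

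A minimum of 2-fold left 1181 genes in GFP-high, 1109 in GFP-intermediate and 1895 in GFP-negative cells and 1372 along the small intestine. With only the groups compared, the counts were 3736 in GFP-intermediate cells, 1709 in GFP-negative cells, 52 in the contrast of fractions and 4996 along the small intestine. Without the libraries numbered 1 they were 71 in the contrast of fractions, 1186 along the small intestine and 1266 between the axes. DESeq2's Wald test called 264 genes in the contrast of fractions. The causes were not tested. Leaving out 1 library gave 1433 to 1722 genes in GFP-high, 1310 to 1434 in GFP-intermediate and 2119 to 3264 in GFP-negative cells, 83 to 171 in the contrast of fractions, 1566 to 2866 along the small intestine and 1638 to 2043 between the axes. In the contrast of fractions, Slc18a1 (adjusted p = 0.0643), Fgfbp1 (0.062) and Cps1 (0.103) missed the threshold with only the groups compared.

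At the depth of these libraries, colon genes with no count in 1 part are given as bounds against a floor of 3 counts per library and not as folds.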
